A study of Mus musculus with 18 samples.

Results

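The genes described here encode enzymes that make or break down prostaglandins, thromboxane, leukotrienes and the related lipid mediator platelet-activating factor (PAF). They were chosen by name as Ptgs1, Ptgs2, Ptges, Hpgds, Tbxas1, Hpgd, Alox5, Alox5ap, Ltc4s and Pla2g7. Of these 10 genes, 9 had a probe set with 1 gene symbol among 19752 genes so covered, with 1 probe set each, and Ptgs1 was not analysed here. All 9 were among the 15365 genes tested, a filter that asked for a log2 value over the 30th percentile on 2 or more arrays. Ptgs2 fell below that percentile on WT BMDC replicate 1 and WT lung CD103+ replicate 3, and the other 8 genes lay above it on all 18 arrays.

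RNA was profiled on 18 single-channel arrays of mouse myeloid cells, 9 labelled BRAF and 9 labelled WT. BRAF mice carried the floxed BRAFV600E allele, BRAFV600E(CA-flox), together with CD11c-Cre, which recombines in cells that express the integrin CD11c. WT mice were littermates with the same floxed allele and no Cre, so both genotypes shared that allele. Each genotype gave 3 arrays of bone marrow derived dendritic cells (BMDC) and 2 arrays of each organ population, which were liver cells sorted for CD11b and lung cells sorted for CD11b or for CD103. BMDC were sorted as live CD11c+CD11b+ cells from untreated cultures of femur marrow of mice aged 5 weeks. Organ cells were sorted from unmanipulated mice aged 14 weeks, and the labels name only the organ and the 1 surface marker. Age, culture and sort therefore cannot be told apart between BMDC and organ cells. The labels do not say whether replicates came from separate animals or cultures, so each p-value reflects the spread among these arrays alone, and that spread may be technical. In such bulk samples, fewer cells of a type and less RNA per cell cannot be told apart.

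Values are log2 of the deposited array intensity, and each difference was tested with limma over all genes and called at a Benjamini-Hochberg adjusted p under 0.05. The defining genes of the sorts were high where the labels place them. Itgae, which encodes CD103, was at 10.60 and 11.84 in BRAF lung CD103+ cells and at 11.42 and 12.18 in WT lung CD103+ cells, against at most 7.65 on the other arrays. Itgam, which encodes CD11b, was at 6.87 to 8.39 on the lung CD103+ arrays and at 9.32 to 11.92 on the others. A pair of arrays stood apart by a narrow spread, with interquartile ranges (log2) of 1.90 for BRAF BMDC replicate 2 and 1.92 for WT liver replicate 3, against 2.41 to 2.99 for the others.

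Phospholipases free arachidonic acid from membranes, and 2 enzyme routes then act on it. In the cyclooxygenase route, Ptgs1 or Ptgs2 forms prostaglandin H2, which Ptges turns into prostaglandin E2, Hpgds into prostaglandin D2 and Tbxas1 into thromboxane, and Hpgd oxidises prostaglandins to inactive products. In the lipoxygenase route, Alox5, which receives its substrate from the membrane protein Alox5ap, forms leukotriene A4, which Ltc4s joins to glutathione as leukotriene C4. Pla2g7, the secreted PAF acetylhydrolase, inactivates PAF rather than an eicosanoid. In dendritic cells, prostaglandin E2 acting on the receptors Ptger2 and Ptger4 and leukotriene C4 are both known to promote Ccr7-dependent migration to lymph nodes.

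Ptgs2 and Hpgd encode the enzymes that open and end the prostaglandin route, and their log2 values had the highest correlation of any pair of members over the 18 arrays (Pearson r = 0.85 among 36 pairs, given as a description, since arrays of a population share that population's level). Their promoters are therefore shown, from 250 bases before to 50 bases after the RefSeq transcription start (GRCm38.p6, both on the plus strand). Ptgs2 lies at chr1:150099781-150100080, with the C/EBP palindrome TTGCGCAA at base 182 and the E-box CACGTG at base 267 in capitals, counted from the first base of the window. Hpgd lies at chr8:56294302-56294601, with the TATA box letters TATAAA at base 255 in capitals. That match and the Ptgs2 E-box begin after the annotated start, at positions 4 and 16 relative to it. TATAAA is therefore given as letters alone.
Ptgs2: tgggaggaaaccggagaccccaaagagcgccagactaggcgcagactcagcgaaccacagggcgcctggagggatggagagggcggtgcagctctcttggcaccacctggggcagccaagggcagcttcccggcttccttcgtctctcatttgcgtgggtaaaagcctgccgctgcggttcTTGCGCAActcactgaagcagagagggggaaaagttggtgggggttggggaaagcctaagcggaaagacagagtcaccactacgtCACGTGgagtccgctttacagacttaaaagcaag
Hpgd: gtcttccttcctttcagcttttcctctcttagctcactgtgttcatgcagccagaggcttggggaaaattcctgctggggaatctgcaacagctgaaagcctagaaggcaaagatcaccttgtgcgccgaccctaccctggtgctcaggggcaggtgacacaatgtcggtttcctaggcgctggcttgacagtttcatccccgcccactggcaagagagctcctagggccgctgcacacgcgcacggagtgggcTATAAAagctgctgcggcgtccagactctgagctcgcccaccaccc
Searched on both strands, the C/EBP palindrome occurred in 0.184% of 32544 mouse promoters of the same length, the E-box in 7.17% and the TATA letters in 13.6%. AP-1 (TGANTCA), cAMP response element (TGACGTCA), ETS (CCGGAA), NF-kB, PU.1 (GAGGAAGT) and CCAAT letters were not in either window, and occurred in 1.61% (NF-kB) to 37.4% (CCAAT) of promoters. The Ptgs2 and Hpgd windows shared none of the motifs searched, and no match overlapped another. A promoter was found for 9 of the 10 members, and among the other 7 the PU.1 letters occurred in Ptgs1 and Hpgds and both the AP-1 and the TATA letters in Tbxas1.

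**Figure D1:**
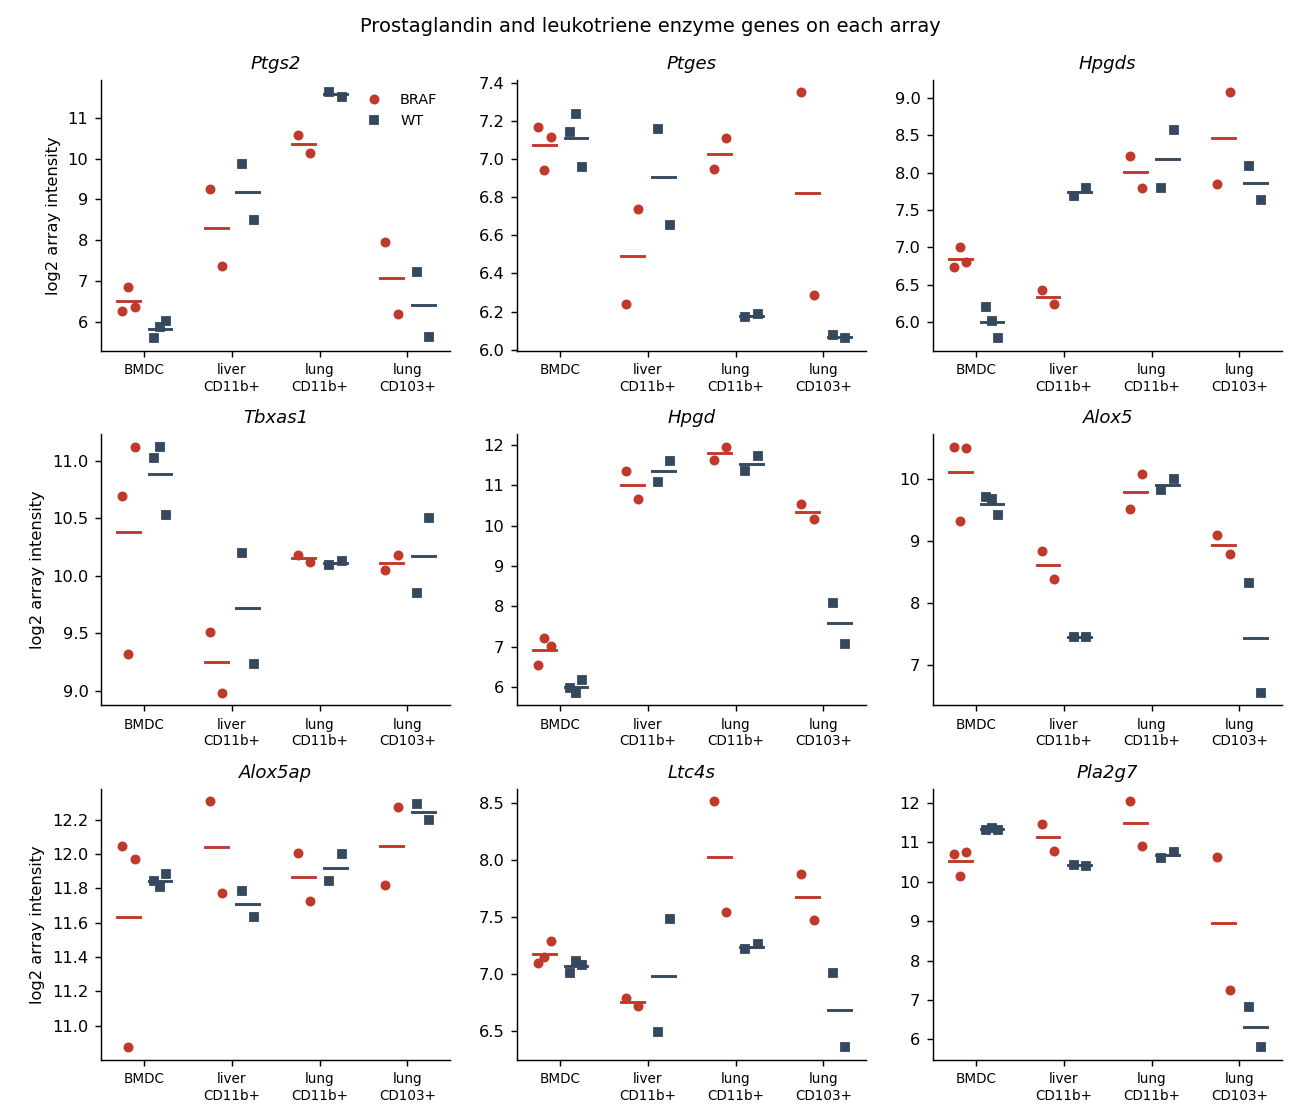
Log2 array intensity of the 9 measured enzyme genes in each population, with BRAF arrays as red circles, WT arrays as blue squares and group means as bars (3 arrays per genotype in BMDC, 2 in the others; each panel has its own scale). Ptgs2 stood at 10.14 to 11.64 in lung CD11b+ cells and at 5.58 to 6.86 in BMDC, and Hpgd in BRAF lung CD103+ cells stood at 10.17 and 10.54, against 7.07 and 8.08 in WT.

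The populations differed in a few enzymes, and each such gene was lower than in lung CD11b+ cells. In lung CD103+ cells, Ptgs2, Hpgd, Alox5 and Pla2g7 were lower, in liver CD11b+ cells Ptgs2, Hpgds and Alox5 were lower, and in BMDC Ptgs2, Hpgd and Hpgds were lower. These 3 comparisons share the lung CD11b+ arrays, and each is the mean of the BRAF and the WT difference. The counts were 4 of 9 in lung CD103+ cells, where 5.64% of all genes tested were called and 3.13% were called lower, 3 of 9 in liver, where 2.12% were called and 1.91% were lower, and 3 of 9 in BMDC, where 11.7% were called and 5.71% were lower. The median log2 difference of the 9 genes was -0.45, -0.65 and -0.16 in these 3 comparisons in turn, against 0.03, 0.02 and 0.08 over all genes tested.

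Ptgs2, the inducible cyclooxygenase gene, was at 7.94 and 6.20 in BRAF and at 7.21 and 5.61 in WT lung CD103+ cells. In liver CD11b+ cells it was at 9.25 and 7.36 in BRAF and at 9.86 and 8.50 in WT. BMDC were at 6.25, 6.86 and 6.37 in BRAF and at 5.58, 5.87 and 6.02 in WT. Lung CD11b+ cells stood above every other array, at 10.57 and 10.14 in BRAF and at 11.64 and 11.52 in WT. The log2 difference from lung CD11b+ cells was -4.23 ± 0.46 in lung CD103+ cells (SE, adjusted p = 3.68e-05), -2.23 ± 0.46 in liver (adjusted p = 0.0235) and -4.81 ± 0.42 in BMDC (adjusted p = 2.51e-06). On the raw scale these correspond to 0.0533, 0.213 and 0.0357 times the lung CD11b+ level. In this order of populations the BMDC and lung CD103+ arrays overlapped, and so did the liver and lung CD103+ arrays. The liver call was lost without any 1 of 5 arrays (BRAF liver replicate 3, BRAF lung CD11b+ replicate 1, WT liver replicate 3 and either WT lung CD11b+ array), with adjusted p up to 0.131, and with WT arrays alone (adjusted p = 0.0682), while the other 2 Ptgs2 calls held without any 1 array.

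Hpgd, which inactivates prostaglandins, was high in liver and lung CD11b+ cells and far lower in BMDC. It was at 6.54, 7.22 and 7.01 in BRAF and at 5.98, 5.85 and 6.18 in WT BMDC, between the 34.1 and the 61.7 percentile of those arrays. Lung CD103+ cells were at 10.54 and 10.17 in BRAF and at 8.08 and 7.07 in WT. Liver cells were at 11.36 and 10.67 in BRAF and at 11.10 and 11.62 in WT, and lung CD11b+ cells at 11.64 and 11.97 in BRAF and at 11.36 and 11.73 in WT. Liver and lung CD11b+ arrays thus overlapped (log2 difference -0.49 ± 0.24, adjusted p = 0.272). BMDC had a log2 difference of -5.21 ± 0.22 from lung CD11b+ cells (adjusted p = 5.47e-09), or 0.0271 times the level. Lung CD103+ cells lay between BMDC and the other organ cells in the order of means, with a log2 difference of -2.71 ± 0.24 from lung CD11b+ cells (adjusted p = 5.67e-06). That difference was -1.45 ± 0.34 within BRAF (adjusted p = 0.0602) and -3.97 ± 0.34 within WT (adjusted p = 7.99e-06).

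Pla2g7, the PAF acetylhydrolase gene, was lower in lung CD103+ cells than in lung CD11b+ cells by a log2 difference of -3.45 ± 0.51 (adjusted p = 0.000556). It was at 10.64 and 7.26 in BRAF and at 6.82 and 5.80 in WT lung CD103+ cells. In lung CD11b+ cells it was at 12.05 and 10.92 in BRAF and at 10.59 and 10.76 in WT. BRAF lung CD103+ replicate 1 was thus between the WT lung CD11b+ arrays, while the other 3 lung CD103+ arrays stood below every array of the other populations. The difference of lung CD103+ from lung CD11b+ cells was -4.37 ± 0.72 within WT (adjusted p = 0.00221). Within BRAF it was -2.54 ± 0.72 and was not called (adjusted p = 0.148). Liver cells and BMDC ranged from 10.15 to 11.48, with log2 differences of -0.31 ± 0.51 and -0.14 ± 0.47 from lung CD11b+ cells (adjusted p = 0.749 and 0.900).

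Alox5, which encodes 5-lipoxygenase, was lower in lung CD103+ cells (log2 difference -1.67 ± 0.33, adjusted p = 0.00563) and in liver cells (-1.83 ± 0.33, adjusted p = 0.0119) than in lung CD11b+ cells. It was at 9.10 and 8.79 in BRAF and at 8.32 and 6.55 in WT lung CD103+ cells, and at 8.84 and 8.39 in BRAF and at 7.45 on both WT arrays of liver cells. Lung CD11b+ cells were at 9.52 and 10.08 in BRAF and at 9.83 and 10.001 in WT, above all of these. Within WT the differences were -2.48 ± 0.47 in lung CD103+ cells (adjusted p = 0.00611) and -2.46 ± 0.47 in liver (adjusted p = 0.0211). Within BRAF they were -0.85 ± 0.47 (adjusted p = 0.873) and -1.19 ± 0.47 (adjusted p = 0.639), and neither was called. BMDC were at 10.53, 9.33 and 10.51 in BRAF and at 9.72, 9.69 and 9.42 in WT, which overlapped with lung CD11b+ cells (log2 difference 0.01 ± 0.30, adjusted p = 0.992). The liver call was lost without WT liver replicate 3 (adjusted p = 0.0584).

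Hpgds, the prostaglandin D synthase gene of blood cells, was lower in BMDC than in lung CD11b+ cells, with a log2 difference of -1.66 ± 0.22 (adjusted p = 0.00015). BMDC were at 6.73, 7.01 and 6.81 in BRAF and at 6.21, 6.02 and 5.78 in WT, all below the lung CD11b+ values of 8.22 and 7.79 in BRAF and 7.79 and 8.56 in WT. The BMDC difference was -2.17 ± 0.32 within WT (adjusted p = 0.000491) and -1.16 ± 0.32 within BRAF (adjusted p = 0.0723). The difference of liver from lung CD11b+ cells was -1.05 ± 0.25 (adjusted p = 0.0397). It was -0.44 ± 0.35 with WT arrays alone (adjusted p = 0.411) and was lost without any 1 of 7 of the 8 arrays compared, WT liver replicate 1 being the exception, with adjusted p of 0.0516 to 0.149. Lung CD103+ cells, at 7.84 and 9.08 in BRAF and 8.09 and 7.64 in WT, overlapped with lung CD11b+ cells.

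Ptges, Tbxas1, Alox5ap and Ltc4s passed the test in none of the 3 population comparisons. Alox5ap, the partner of 5-lipoxygenase, was high throughout, at 10.87 to 12.31 and at the 97.4 percentile or above on every array. Tbxas1, which makes thromboxane, was at 8.98 to 11.12, and its liver arrays overlapped with those of the other populations. Ptges and Ltc4s were nearer the middle of the arrays, at 6.06 to 7.35 and 6.36 to 8.51. Their log2 differences from lung CD11b+ cells ran from -0.16 to 0.49 for Ptges and from -0.76 to -0.45 for Ltc4s, with adjusted p of 0.106 or more. Single arrays moved some of these: without BRAF BMDC replicate 2 Tbxas1 was called higher in BMDC (0.77, adjusted p = 0.0259), and without BRAF lung CD11b+ replicate 2 Ltc4s was called lower in liver cells (-1.01, adjusted p = 0.0496) and in BMDC (-0.75, adjusted p = 0.0425). Ptges was called higher in BMDC with WT arrays alone (0.93, adjusted p = 0.0436).

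**Figure D2:**
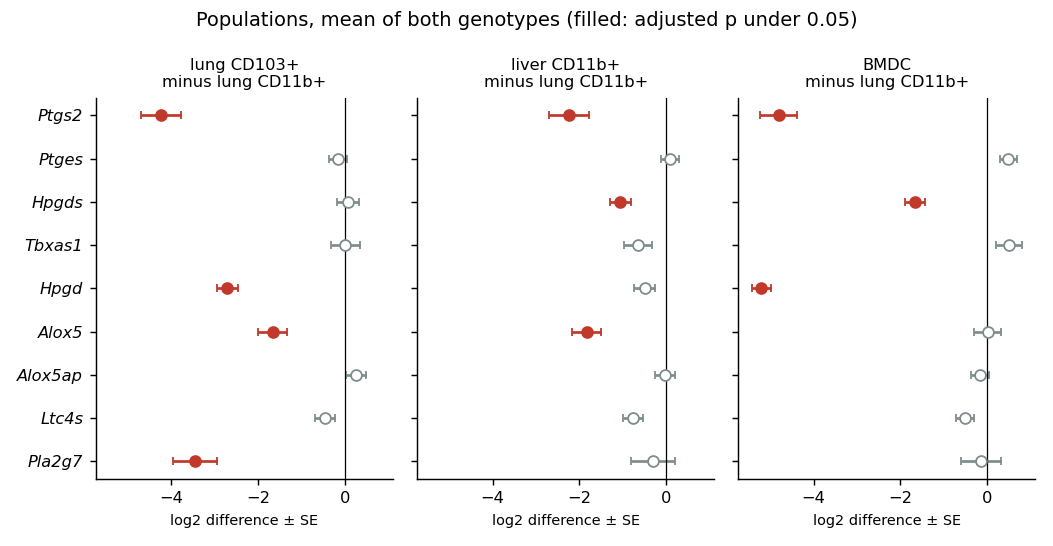
Log2 differences from lung CD11b+ cells, averaged over both genotypes, for 9 enzyme genes in 3 panels (lung CD103+, liver CD11b+ and BMDC), with bars for the standard error and filled points for adjusted p under 0.05. Every filled point lies below 0, and Ptgs2 is filled in all 3 panels.

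BRAF against WT was compared within each population to ask whether the active kinase went with other levels of these enzymes. Hpgd in lung CD103+ cells was the 1 enzyme gene called in any single population. It was 6.86-fold higher in BRAF than in WT lung CD103+ cells, at 10.54 and 10.17 in BRAF against 8.08 and 7.07 in WT, with group means of 10.35 ± 0.26 and 7.58 ± 0.72 (SD, n = 2 each). The log2 difference was 2.78 ± 0.34 (SE, limma adjusted p = 0.00484). That was 1 of 9 members, where 0.0846% of all genes were called in these cells and 0.0456% were called higher. The call was lost without BRAF lung CD103+ replicate 1 (log2 difference 2.59, adjusted p = 0.0744) and in a fit of only the 4 lung CD103+ arrays (2.78, adjusted p = 0.373).

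Counts in the other populations were 0 of 9 in BMDC, where 0.521% of all genes were called, 0 of 9 in liver, where 0.215% were called, and 0 of 9 in lung CD11b+ cells, where 0.338% were called. At an unadjusted limma p under 0.05, the members numbered 2 in BMDC (6.65% of all genes), 2 in liver (14.1%), 2 in lung CD11b+ cells (6.71%) and 5 in lung CD103+ cells (4.26%). The fit by array weights called 3 members in BMDC, which were Hpgd, Hpgds and Alox5, and 1 in lung CD11b+ cells, Ptges, while quantile normalization called 1 in liver, Hpgds. The shares above belong to the fit reported and not to these alternatives. In alternatives other than the loss of 1 array, calls over all genes reached up to 1658 in BMDC (80 in the fit reported). In lung CD11b+ cells they reached up to 369 (52 in the fit reported). Averaged over the 4 populations, Hpgd was the 1 member called (log2 difference 0.90 ± 0.16, adjusted p = 0.0165). Of all genes, 0.989% were called in this average, 0.488% higher and 0.501% lower. The Hpgd differences in it were unequal, at 2.78 in lung CD103+ cells, 0.92 in BMDC, 0.26 in lung CD11b+ cells and -0.34 in liver. This average lost its call without WT liver replicate 1, without WT lung CD11b+ replicate 1 and without BRAF lung CD103+ replicate 1, with adjusted p of 0.0541 to 0.0619. Without BRAF lung CD103+ replicate 2 the Pla2g7 average was also called (1.26, adjusted p = 0.00525), and so was the Alox5 average without WT lung CD103+ replicate 1 (adjusted p = 0.0145) or without BRAF BMDC replicate 2 (adjusted p = 0.0394).

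In lung CD103+ cells, 5 members had both BRAF arrays above both WT arrays, which 9.16% of all genes did, and 0 had them below, which 19.3% did. Besides Hpgd these were Alox5, Pla2g7, Ltc4s and Ptges. The median log2 difference of the 9 members was 0.75 in these cells, against -0.08 over all genes. For Pla2g7 the log2 difference was 2.64 ± 0.72 (adjusted p = 0.307), and its BRAF arrays stood apart, at 10.64 and 7.26. Leaving out 1 array moved it in both directions, to 0.95 without BRAF replicate 1, where it was not called, and to 4.33 without BRAF replicate 2 (adjusted p = 0.000764). Alox5 had a log2 difference of 1.51 ± 0.47 (adjusted p = 0.442), with WT arrays at 8.32 and 6.55. It was 0.63 and not called without WT replicate 3, and 2.40 without WT replicate 1 (adjusted p = 0.0185). Ltc4s was at 7.87 and 7.48 in BRAF and at 7.01 and 6.36 in WT lung CD103+ cells (0.99 ± 0.33, adjusted p = 0.555). Ptges was at 7.35 and 6.29 in BRAF and at 6.08 and 6.06 in WT (0.75 ± 0.29, adjusted p = 0.859), with 0.22 to 1.28 on leaving out 1 array.

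Markers of macrophages in general and of classical monocytes moved with Hpgd, Pla2g7 and Alox5 on the lung CD103+ arrays, while those of alveolar macrophages and Kupffer cells overlapped between genotypes. All 14 macrophage markers tested, of 16 listed, had a positive log2 difference there, with a median of 1.82, and 0 were called. Their mean log2 value was 10.46 and 9.09 on BRAF replicates 1 and 2, against 8.61 and 7.35 on WT replicates 1 and 3, and their summed intensity ran from 11412 to 26482 in BRAF against 6051 to 9433 in WT. Among them the mannose receptor gene Mrc1 was at 11.15 and 9.37 in BRAF and at 8.39 and 5.16 in WT, and the complement gene C1qb at 12.07 and 9.89 in BRAF and at 9.64 and 7.23 in WT. The 7 classical monocyte markers measured, of 10 listed, had mean log2 values of 9.82 and 8.98 in BRAF, against 8.32 and 6.48 in WT, with 5 positive and 2 negative differences and 0 called. Alveolar macrophage markers had mean log2 values of 8.98 and 8.23 in BRAF, against 8.42 and 6.26 in WT, with 11 of 15 positive (median 0.66). Kupffer cell markers had means of 7.64 and 6.85 in BRAF, against 6.99 and 6.10 in WT, with 7 of 11 positive (median 1.17). In both lists 0 were called. Of all genes tested, 35% had a positive difference in these cells. Type 1 dendritic cell markers were negative for 10 of 12 (median -0.22), of which Cd207 was called lower. Conventional dendritic cell markers were negative for 10 of 12, with 0 called. Endothelial markers were also negative for 7 of 9 and T and NK cell markers for 6 of 8, while hepatocyte markers were positive for 10 of 11. The dendritic cell genes are thus not shown to be particular. The type 1 markers had mean log2 values of 10.66 and 10.92 in BRAF, against 10.99 and 11.33 in WT, and Xcr1 among them was at 12.22 and 12.43 in BRAF and at 12.58 and 12.42 in WT. BRAF replicate 1 also had the hepatocyte gene Alb at 10.98, against 5.94 to 7.80 on the other 3 lung CD103+ arrays. The part of these cell types in the Hpgd difference was not tested.

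**Figure D3:**
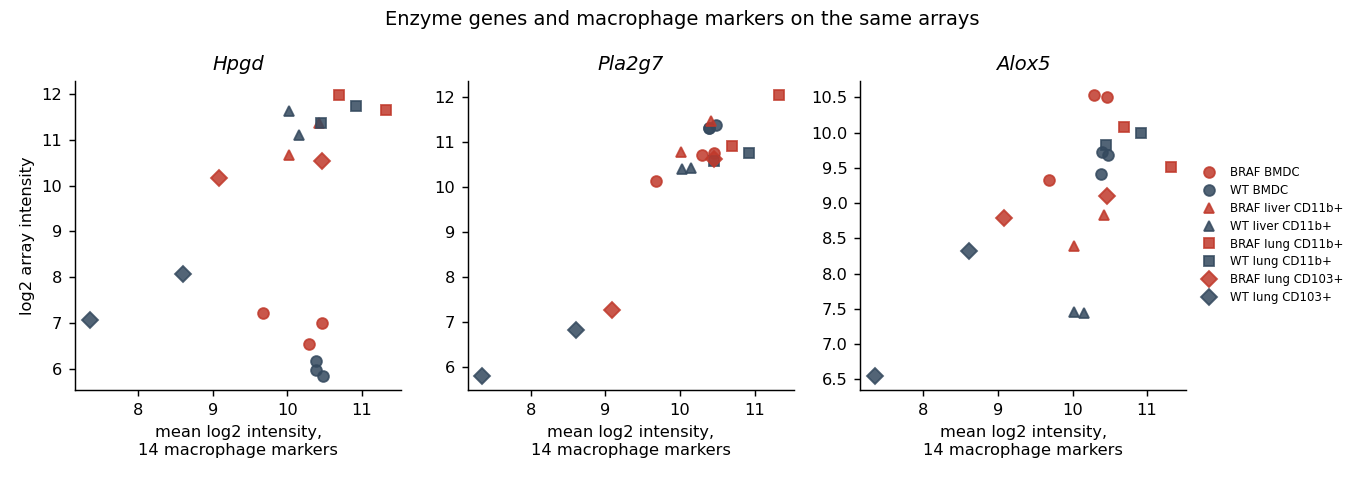
Log2 intensity of Hpgd, Pla2g7 and Alox5 (vertical axes) against the mean log2 intensity of 14 macrophage markers on the same array (horizontal axes), with BRAF in red, WT in blue and a symbol for each population. The 4 lung CD103+ arrays (diamonds) spread from 7.35 to 10.46 in marker mean, and both BRAF diamonds lie to the right of and above both WT diamonds in each panel.

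In lung CD11b+ cells, 3 members had both BRAF arrays above both WT arrays, which 21.6% of all genes did, and 1 had them below, which 24.8% did. Pla2g7 was at 12.05 and 10.92 in BRAF and at 10.59 and 10.76 in WT (log2 difference 0.81 ± 0.72, adjusted p = 1). Ptges was at 6.95 and 7.11 in BRAF and at 6.17 and 6.19 in WT (0.85 ± 0.29, adjusted p = 0.400). The member below was Ptgs2, at 10.57 and 10.14 in BRAF and at 11.64 and 11.52 in WT (-1.22 ± 0.65, adjusted p = 0.839). Markers of mature dendritic cells were lower on the same arrays, with 14 of 15 negative (median -0.56), of which Ccr7 and Fscn1 were called, and mean log2 values of 8.19 and 8.45 in BRAF, against 9.54 and 9.32 in WT. Conventional dendritic cell markers were negative for 11 of 12, type 2 dendritic cell markers for 8 of 9 (median -0.87) and B cell markers for 7 of 7. Alveolar macrophage markers were positive for 13 of 15 (median 0.86). In each of these lists 0 were called. The mature dendritic cell genes are thus not shown to be particular. The part of these cells in the Ptgs2 values was not tested. Ltc4s, the leukotriene C4 synthase gene, was at 8.51 and 7.54 in BRAF and at 7.22 and 7.26 in WT (0.79 ± 0.33, adjusted p = 0.619). BRAF replicate 1, which held that highest Ltc4s value, also had the Kupffer cell genes Vsig4 at 11.94, Cd5l at 10.33 and Slc40a1 at 9.91, against at most 7.98, 5.50 and 6.25 on the other 3 lung CD11b+ arrays. The mean of the 11 Kupffer markers was 9.21 on that array and 6.59 on BRAF replicate 2, against 7.003 and 7.04 in WT, while Clec4f, which defines Kupffer cells, was at 6.10 to 7.04 on every array of the series. Their part in the Ltc4s values was not tested.

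In BMDC, the 3 members with every BRAF array above every WT array, which 6.99% of all genes had, were Ptgs2, Hpgd and Hpgds, and the 1 below, which 9.08% had, was Pla2g7. Hpgd was at 6.54 to 7.22 in BRAF against 5.85 to 6.18 in WT (log2 difference 0.92 ± 0.28, adjusted p = 0.353), Hpgds had a difference of 0.85 ± 0.28 (adjusted p = 0.455) and Ptgs2 of 0.67 ± 0.53 (adjusted p = 0.737). Pla2g7 was at 10.71, 10.15 and 10.77 in BRAF and at 11.32, 11.38 and 11.31 in WT (-0.79 ± 0.59, adjusted p = 0.737). BRAF BMDC replicate 2, the array of narrow spread, held the highest value of the 6 arrays for Ptgs2, Hpgd and Hpgds and the lowest for Ptges, Tbxas1, Alox5, Alox5ap and Pla2g7.

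Liver CD11b+ cells had Alox5 and Pla2g7 with both BRAF arrays above both WT arrays, which 22.7% of all genes did, and Hpgds below, which 15.8% did. Hpgds was at 6.44 and 6.24 in BRAF and at 7.69 and 7.80 in WT (log2 difference -1.40 ± 0.35, adjusted p = 0.127). Alox5 was at 8.84 and 8.39 in BRAF and at 7.45 on both WT arrays (1.16 ± 0.47, adjusted p = 0.300). Mast cells, basophils and eosinophils are known for prostaglandin D2 and leukotriene C4 synthesis, and of 18 markers of these cells 12 were tested, of which 10 had a negative difference in liver. The carboxypeptidase gene Cpa3 of mast cells and basophils was called lower, at 4.83 and 4.54 in BRAF and at 6.16 and 6.52 in WT (-1.66 ± 0.26, adjusted p = 0.0214). The IgE receptor genes Fcer1a and Ms4a2 were at 3.85 to 4.51 in BRAF and at 4.54 to 5.61 in WT, below the 30th percentile on all 4 liver arrays. The list's mean was 5.49 and 5.56 in BRAF and 5.94 and 6.10 in WT liver cells, with summed intensities of 1015 and 1098 in BRAF against 1462 and 1512 in WT. Markers of several other cell types were also mostly lower in BRAF liver cells, with 14 of 15 mature dendritic cell markers, 8 of 8 T and NK cell markers, 11 of 13 lung epithelium markers and 7 of 9 endothelial markers negative, so that the mast cell and basophil genes are not shown to be particular. Other lists went the other way, with neutrophil markers positive for 10 of 14 (median 0.82, 1 called higher) and classical monocyte markers for 5 of 7 (median 1.21). Of all genes tested, 56.3% had a positive difference in liver. WT liver replicate 3, the array of narrow spread, had its 30th percentile at 6.07, against 5.69 to 5.83 on the other liver arrays. The part of any of these in the Hpgds, Alox5 and Pla2g7 differences was not tested.

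**Figure D4:**
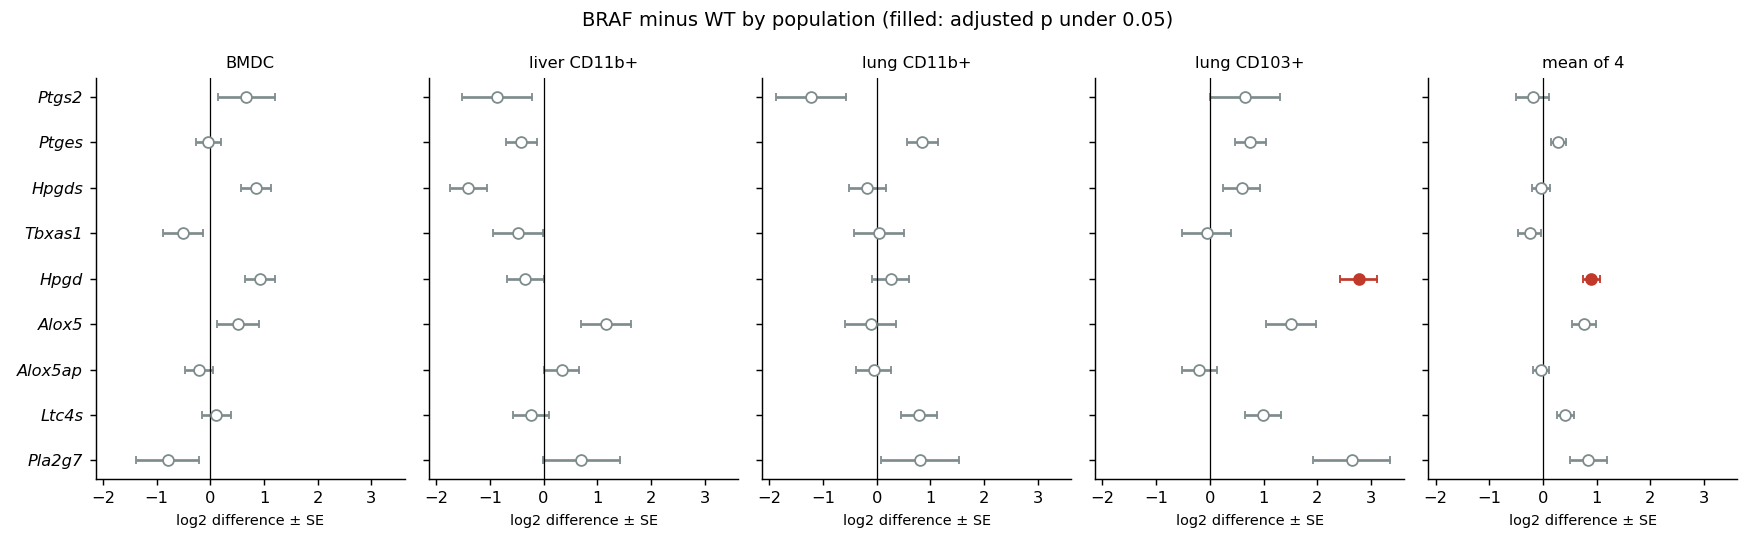
Log2 differences of BRAF from WT for 9 enzyme genes in each population and averaged over the 4, with bars for the standard error and filled points for adjusted p under 0.05. Hpgd is filled in lung CD103+ cells at 2.78 and in the average at 0.90, and no other point is filled.

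Whether the genotype difference itself varied among populations was tested with limma's F test, which called 0 of 9 members, where 0.124% of all genes were called. At an unadjusted F p under 0.05, 4 members passed (Ptges, Hpgd, Hpgds and Pla2g7), against 9.1% of all genes. Hpgd came nearest (adjusted p = 0.0519), with differences of 0.92 for BMDC, -0.34 for liver, 0.26 for lung CD11b+ and 2.78 for lung CD103+ cells. Of the pairwise contrasts of Hpgd, that of liver with lung CD103+ cells was -3.12 ± 0.49 (adjusted p = 0.0863). For Hpgds the difference in BMDC stood 2.25 ± 0.45 above that in liver (adjusted p = 0.0804; F adjusted p = 0.177). Leaving out 1 array brought the Hpgd F test to an adjusted p of 0.0199 to 0.0447 for each of BRAF BMDC replicate 2, BRAF liver replicate 2, BRAF lung CD11b+ replicate 2 and WT lung CD103+ replicate 1. The F test was also passed by Pla2g7 without BRAF lung CD103+ replicate 2 (adjusted p = 0.00591) and by Hpgds without BRAF lung CD103+ replicate 1 (adjusted p = 0.0393). With all 18 arrays the Hpgd F test passed with array weights (adjusted p = 0.0229) and did not pass in the unweighted fit, so a difference among populations rests on how arrays are weighted or which are kept.

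Among 82 other genes of these pathways, 69 were tested, and the genotype averaged over populations called 3 higher and 0 lower. They were Pla2g4a, Dpep2 and Ptger2, while 0 of the 69 were called in any single population or by the F test, where the shares of all genes called were those given above. At the head of the route, Pla2g4a, the cytosolic phospholipase that frees arachidonic acid, had every BRAF array above every WT array in each population. It was at 9.74, 9.63 and 9.75 in BRAF and at 8.89, 8.92 and 9.08 in WT BMDC, and at 9.63 and 9.25 in BRAF and 8.62 and 8.94 in WT lung CD11b+ cells. The averaged log2 difference was 0.66 ± 0.10 (adjusted p = 0.00619), with 0.59 to 0.74 in the single populations, and this call held in every alternative run. Dpep2, a dipeptidase that converts leukotriene D4 to E4, was at 11.84 and 10.39 in BRAF and at 9.71 and 9.72 in WT liver cells, and at 11.51 and 11.07 in BRAF and 9.97 and 9.89 in WT lung CD11b+ cells (averaged difference 0.85 ± 0.19, adjusted p = 0.0427).

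The prostaglandin E2 receptor genes Ptger2 and Ptger4 had averaged differences of opposite sign, of which that of Ptger2 was called. Ptger2 was at 6.84 and 7.03 in BRAF and at 6.33 and 6.38 in WT lung CD103+ cells, with an averaged difference of 0.45 ± 0.09 (adjusted p = 0.0290). Ptger4 was at 9.13 and 9.31 in BRAF and at 10.71 and 10.36 in WT lung CD11b+ cells (log2 difference -1.32 ± 0.28, adjusted p = 0.0634), the arrays on which 14 of 15 mature dendritic cell markers were also lower in BRAF. Its averaged difference was -0.51 ± 0.13 (adjusted p = 0.104), where 13 of those 15 markers were negative and 7 were called lower. Conventional and type 2 dendritic cell markers were also negative, for 11 of 12 and 8 of 9 in lung CD11b+ cells. In the average these were 12 of 12 and 7 of 9. The part of any of these lists in the Ptger4 values was not tested. In lung CD11b+ cells the Ptger4 difference passed the test under quantile normalization (adjusted p = 0.0310), with array weights (0.00200) and without the 2 arrays of narrow spread (0.00751). The Ptger4 average passed under quantile normalization (-0.51, adjusted p = 0.0263). It was -0.58 without the 2 arrays of narrow spread and -0.62 without WT liver replicate 3, 1 of those 2 arrays. Both of these fits leave 1 WT liver array. The averaged calls of Dpep2 and Ptger2 were both lost when arrays were centred on their medians (adjusted p = 0.0683 and 0.0592) and on leaving out any 1 of 13 arrays for Dpep2 and of 12 for Ptger2, with adjusted p up to 0.131 for Dpep2 and 0.0886 for Ptger2.

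**Figure D5:**
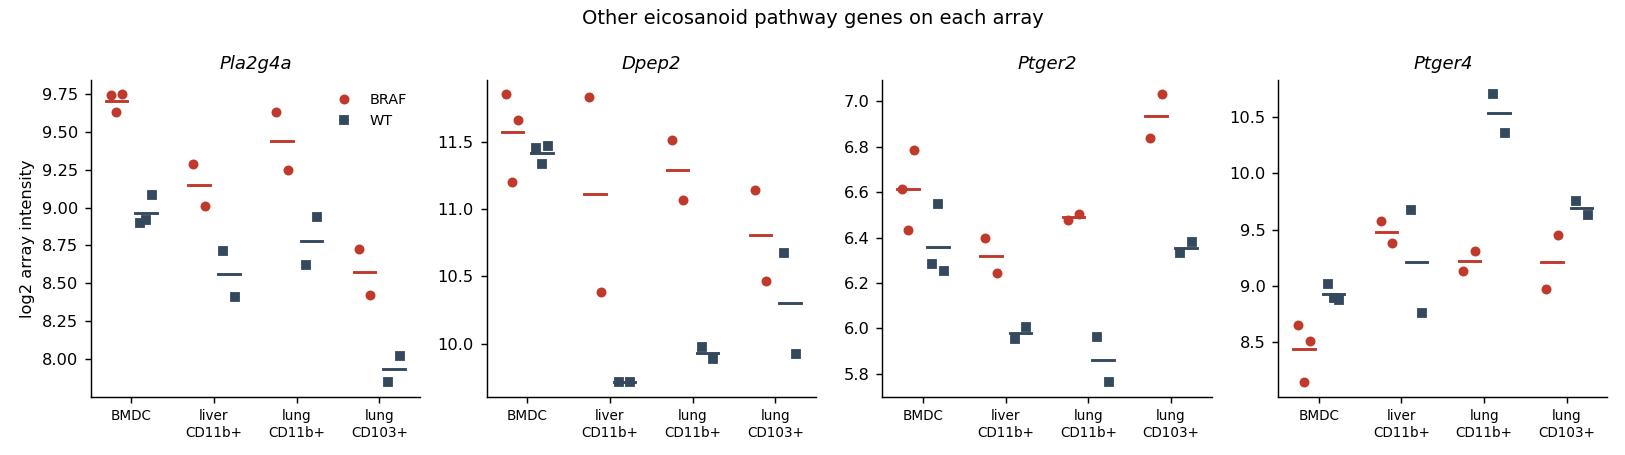
Log2 array intensity of Pla2g4a, Dpep2, Ptger2 and Ptger4 in each population, with BRAF arrays as red circles, WT arrays as blue squares and group means as bars. In Pla2g4a every BRAF array lies above every WT array of its population, and in Ptger4 both BRAF lung CD11b+ arrays, at 9.13 and 9.31, lie below both WT arrays, at 10.71 and 10.36.

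Other pathway genes that missed the threshold included Cyp4f18, which in mice oxidises leukotriene B4, at 8.56 and 8.02 in BRAF and at 7.22 and 5.53 in WT lung CD103+ cells (1.92 ± 0.54, adjusted p = 0.332). The prostaglandin reductase gene Ptgr1 was at 7.67 and 8.56 in BRAF and at 6.84 and 6.92 in WT liver cells (1.23 ± 0.31, adjusted p = 0.131). Cbr2, a carbonyl reductase abundant in mouse lung, was at 6.88 and 7.44 in BRAF and at 9.27 and 9.79 in WT lung CD11b+ cells (-2.37 ± 0.78, adjusted p = 0.346). In BMDC, Daglb, which makes the arachidonate-bearing lipid 2-arachidonoylglycerol, had a difference of -1.17 ± 0.30 (adjusted p = 0.149).

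Across populations, 12 of the 69 were called in lung CD103+ against lung CD11b+ cells, 2 higher and 10 lower, where 2.51% of all genes were higher and 3.13% lower. The leukotriene receptor gene Cysltr2 was higher, at 5.30 and 6.08 in BRAF and 6.38 and 6.55 in WT lung CD103+ cells, against 5.14 and 4.76 in BRAF and 4.42 and 4.15 in WT lung CD11b+ cells (adjusted p = 0.00118). All 4 lung CD11b+ values and that of BRAF lung CD103+ replicate 1 lay below their array's 30th percentile, so no size is given for this difference. Lower were Cyp4f18 (-2.78 ± 0.38), Cmklr1, a chemerin receptor (-2.37 ± 0.36), the prostacyclin receptor gene Ptgir (-1.44 ± 0.32), the PAF receptor gene Ptafr (-1.39 ± 0.20) and Pla2g4a (-0.86 ± 0.15), with adjusted p of 0.0133 or less. In liver cells 6 of the 69 were called lower and 0 higher, where 1.91% of all genes were lower and 0.202% higher. Among these 6 were Cbr2 (-2.49 ± 0.55) and Ephx1, an epoxide hydrolase (-2.28 ± 0.46). BMDC had 9 higher and 6 lower (6.01% and 5.71% of all genes), with the monoacylglycerol lipase gene Mgll at 2.88 ± 0.34, Ptgr1 at 2.11 ± 0.20, the secreted phospholipase gene Pla2g2d at -2.20 ± 0.38 and Ptger4 at -1.20 ± 0.18.

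The genes whose log2 values followed each member most closely over the 18 arrays are given as a description. Ptgs2 was nearest to St8sia6 (Pearson r = 0.96), Plxna4 (0.92) and Retnla (0.91), and Hpgd to Ms4a6b (0.97), Ms4a6c (0.96) and the monocyte marker Ms4a4c (0.95). For Pla2g7 these were the chemokine gene Ccl9 (0.95), Rnf149 (0.94) and Clec4a2 (0.93), and for Alox5 they were Kctd12b (0.91), Klf7 (0.90) and Dab2 (0.90). Hpgds was nearest to Phf11a (0.90), Med7 (0.88) and the lung surfactant gene Sftpa1 (0.88), and Ltc4s to the Kupffer marker Slc40a1 (0.86), Clec1b (0.83) and Colec12 (0.80). Tbxas1 was nearest to Slc37a3 (0.91), Lipa (0.91) and Lpin1 (0.90), Alox5ap to Psmf1 (0.90), Nfrkb (0.89) and Phyh (0.87), and Ptges to Tnfaip2 (0.85), Trim6 (0.82) and Hs1bp3 (0.81). Members were less alike among themselves, with r between -0.60 for Hpgd and Tbxas1 and 0.61 for Ptges and Pla2g7 in every pair other than Ptgs2 and Hpgd.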

How the data were processed

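The deposited values are microarray intensity on a linear scale, 1 value per probe set, with array medians from 93.7 to 113.2. The authors' scanner settings, background correction and normalization are not given in the sources used here. The labels' protocols name Trizol for extraction of total RNA and biotin as the label. Precision is limited by the number of arrays.

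The analysis took log2 of these values as they are, without a constant or renormalization. Of 24922 probe sets, 21425 had 1 gene symbol in GEO's platform annotation, 1399 had several and 2098 are unnamed here. For the 921 genes with several probe sets, the one with the highest mean was used. Groups were taken from the titles. The model held 1 mean for each of the 8 groups, over 18 arrays, in limma 3.58.1 (R 4.3.3), with 10 residual and 4.83 prior degrees of freedom, so that groups of 2 arrays share the spread. P-values were adjusted by Benjamini-Hochberg over 15365 genes. Errors after differences are standard errors. The fits were tested on simulated data, in which 200 of 15365 genes were changed and noise was independent, with the same spread on every array. There the genotype contrasts of the organ populations recovered 28% to 32% of log2 changes of 1 and 87% to 91% of changes of 2. In BMDC these shares were 54% and 94%. For changes in 1 population only, the F test recovered 4% and 48%. A lack of calls thus says little about changes of the smaller size, or about any of these sizes in the F test. The real arrays varied unequally, with fitted array weights of 0.109 to 6.03, so recovery in the data may be lower than in the simulation. Figures were drawn with matplotlib 3.10.9 in Python 3.11.15.

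Named genes were the members, other pathway genes that were called or had the 2 smallest p of their list, Ptger2 and Ptger4, the 3 genes nearest to each member in Pearson correlation, and markers of other cell types. From the population contrasts a selection of the called pathway genes is given. Vsig4, Cd5l, Slc40a1, Clec4f, Xcr1, Cd207, Ccr7, Fscn1, Cpa3, Fcer1a, Ms4a2, Itgae, Itgam and Alb were named after their values were seen. The members and lists were chosen with earlier results of these data known. The E-box was added to the motifs after the sequences were seen. Alternatives were other scalings, filters, probe set rules, variance models, array weights, sample sets, the replicate number as a block, and the loss of any 1 array.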

Additional observations from a re-analysis of the deposited data

Results flagged for a closer look

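For 3 genes the BRAF arrays lay wholly above the WT arrays in 1 population and wholly below them in another. Ptgs2 was above in BMDC (log2 difference 0.67) and below in lung CD11b+ cells (-1.22), and the F test of a difference among the 4 populations gave an adjusted p of 0.6044. The pairwise contrast of these 2 populations was 1.89 ± 0.84 (SE, limma adjusted p = 0.954). Hpgds was above in BMDC (0.85) and below in liver CD11b+ cells (-1.40), with an F test adjusted p of 0.1772. Pla2g7 was below in BMDC (-0.79) and above in the other 3 populations (0.71 for liver, 0.81 for lung CD11b+ and 2.64 for lung CD103+ cells), with an F test adjusted p of 0.448. None of the 3 passed the test of the difference. With 2 arrays per genotype, 15.8% to 24.8% of all genes tested were so separated in 1 direction in liver and lung CD11b+ cells.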

How the results depend on the processing

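Of 86 results for single genes under 1602 alternatives, 1439 kept their direction and side of the threshold, 56 lost a call, 33 gained one and 74, in 26 results, turned direction. Counts of members called that moved by more than 1.5 times, or to or from 0, were as follows. Array weights gave 3 in BMDC (0 in the fit reported), 1 in lung CD11b+ cells (0), 6 in BMDC against lung CD11b+ cells (3) and 1 by the F test (0). Quantile normalization gave 1 in liver (0). Fits of only the groups compared gave 0 in lung CD103+ cells (1) and 1 in liver against lung CD11b+ cells (3), where WT arrays alone also gave 1. Leaving out 1 array gave 0 to 2 members in lung CD103+ cells, 0 to 2 in the genotype average, 0 to 3 in liver against lung CD11b+ cells and 0 to 1 by the F test. Smaller moves were 3 to 4 in BMDC against lung CD11b+ cells without the narrow arrays, with only the groups compared, with WT arrays alone and on leaving out 1 array, and 3 to 2 in liver against lung CD11b+ cells with array weights and without the narrow arrays. Calls over all genes moved as well, so these member counts are not particular to the members. In alternatives other than the loss of 1 array, all genes called reached up to 1658 in BMDC (80 in the fit reported) and 369 in lung CD11b+ cells (52). They reached up to 4951 in BMDC against lung CD11b+ cells (1802) and 249 by the F test (19). The cause of the moves in either count was not tested. The replicate block gave 0 members in liver against lung CD11b+ cells (3), and the same counts as without it in BMDC (0) and in lung CD103+ against lung CD11b+ cells (4). Replicate numbers are not stated to pair arrays: same-numbered BMDC arrays deviated from their group means with r of 0.47, -0.23 and -0.40 across genes, same-numbered lung CD103+ and CD11b+ arrays with 0.22 in BRAF and 0.16 in WT, and liver and lung CD11b+ arrays with 0.037 in BRAF and 0.036 in WT.

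Differences that turned direction were uncalled in the fit reported. In BMDC without the 2 arrays of narrow spread, Ptges was 0.027, Tbxas1 0.022 and Alox5ap 0.16, and Alox5ap was 0.18 with array weights and 0.0035 under quantile normalization. Under quantile normalization Alox5 was 0.0034 in lung CD11b+ cells and Tbxas1 0.011 in lung CD103+ cells. Without the narrow arrays Ltc4s was 0.26 in liver, and the Alox5ap average was 0.042, or 0.066 with array weights. Against lung CD11b+ cells, Hpgds was -0.31 in WT lung CD103+ cells, Tbxas1 -0.0059 in lung CD103+ cells under median centring, Ptges -0.016 in liver under quantile normalization, and Alox5ap in liver 0.012 under quantile normalization, 0.019 without the narrow arrays and 0.093 with the replicate block, where Pla2g7 was 0.43. In BMDC against lung CD11b+ cells, Alox5 was -0.041 under median centring and -0.30 in WT, Alox5ap 0.027 with array weights and 0.034 without the narrow arrays, and Pla2g7 0.66 in WT. Leaving out 1 array gave, in BMDC, -0.12 to 0.027 for Ptges, -0.88 to 0.022 for Tbxas1 and -0.42 to 0.16 for Alox5ap. In liver it gave -1.82 to 0.071 for Ptgs2, -0.69 to 0.0027 for Hpgd, -0.96 to 0.013 for Tbxas1 and -0.72 to 0.26 for Ltc4s. In lung CD11b+ cells it gave -0.56 to 0.22 for Hpgds, -0.39 to 0.17 for Alox5 and -0.19 to 0.084 for Alox5ap. In lung CD103+ cells it gave -0.21 to 1.53 for Ptgs2, -0.021 to 1.21 for Hpgds, -0.39 to 0.27 for Tbxas1 and -0.42 to 0.028 for Alox5ap. In the average it gave -0.43 to 0.045 for Ptgs2, -0.19 to 0.12 for Hpgds and -0.10 to 0.061 for Alox5ap. Against lung CD11b+ cells it gave, in lung CD103+ cells, -0.43 to 0.11 for Ptges, -0.24 to 0.38 for Hpgds and -0.15 to 0.18 for Tbxas1, in liver -0.033 to 0.22 for Ptges and -0.15 to 0.11 for Alox5ap, and in BMDC -0.13 to 0.21 for Alox5, -0.26 to 0.034 for Alox5ap and -0.43 to 0.14 for Pla2g7. Median centring moved the median of all genes to 0.14 in liver, and no scaling moved it past 0.1 elsewhere. Where 1 array was left in a group, it was taken to vary like the other groups. How far above background a probe set lay was not given. Among the values limited by this are Ptgs2 in BMDC, Hpgd and Hpgds in WT BMDC, and Ptgs2 and Pla2g7 in WT lung CD103+ cells. Cysltr2 in lung CD11b+ cells and Cbr2 and Cpa3 in liver are limited in the same way.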
